A study of Solanum lycopersicum with 6 samples.

Results

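The 10 genes described here are chosen loci of the tomato systems that handle reactive oxygen species. They are the ascorbate peroxidases APX1 and APX2, the catalases CAT1, CAT2 and CAT3, a pair of Cu/Zn superoxide dismutases (SODs), a glutathione reductase (GR) and the alternative oxidases AOX1a and AOX1b. They were selected by locus identifier with earlier results of these data known, although the rule itself uses no measured value. Of the 10, 9 were matched to a row among the 34688 gene models of the count table, and AOX1a (Solyc08g075540) was not analysed here. All 9 passed the filter on low counts, together with 15966 genes in all.

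The measurements are bulk RNA-seq of wild-type tomato (Solanum lycopersicum) of cultivar M82. Whole roots (n = 3 libraries) were the last 3 cm of the primary roots of 7-day-old seedlings, with 50 to 100 root tips pooled in each sample and no treatment. Protoplasted roots (n = 3 libraries) were pools of such tips, digested for 2 h at 25 °C with cellulases, Macerozyme and pectolyase, then filtered, spun down and washed. The labels name no control that was incubated without enzymes, so digestion, time in solution and the recovery of some cell types over others cannot be told apart.

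Respiration, photosynthesis and membrane oxidases release superoxide, which SODs convert to hydrogen peroxide. Catalases break hydrogen peroxide down in peroxisomes without a reductant, while APXs reduce it with ascorbate and leave oxidized ascorbate to be regenerated through glutathione, which GR keeps reduced. Alternative oxidases divert electrons of the mitochondrial chain to oxygen and so limit the superoxide made there. In plants these genes are widely known to respond to wounding, elicitors and osmotic stress.

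The loci are spread over 8 chromosomes, as their identifiers show. APX1 (Solyc06g005160) and APX2 (Solyc06g005150) carry neighbouring locus numbers on chromosome 6, and the RefSeq annotation of assembly SLM_r2.1 also has no gene between the genes with these symbols. AOX1b (Solyc08g075550) is on chromosome 8, next in number to AOX1a. CAT1 (Solyc12g094620) is on chromosome 12, CAT2 (Solyc02g082760) on chromosome 2, CAT3 (Solyc04g082460) on chromosome 4 and GR (Solyc09g065900) on chromosome 9. The SODs, Solyc01g067740 and Solyc11g066390, are on chromosomes 1 and 11. RefSeq lists the Cu/Zn SOD symbols SODCC.1 and SODCP.2 on those chromosomes, but its table holds no identifier that ties them to the loci, so the loci are used as names here.

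The libraries held 5198513 to 5790082 estimated counts. Levels are given as CPM, which are counts set to a common library total, after TMM normalization, which corrects that total for differences in composition. The QuantSeq kit makes 1 tag from the 3′ end of a transcript, so no length correction was applied and levels of different genes are compared per tag. Groups were compared by the quasi-likelihood test of edgeR, with p-values adjusted over the 15966 genes (Benjamini-Hochberg) and a threshold of 0.05. Over all genes, 17% were higher and 18.7% lower in protoplasted roots, and the median log2 fold change was 0.02, that is 2711 genes higher and 2981 lower, against 1887 and 3447 with a median of -0.14 when libraries were scaled by their size only. A further fit took the replicate number as a block, so that libraries with the same number were compared with each other. In that fit 25% of the genes were higher and 24.3% lower. That libraries with the same number belong together is an assumption of this fit, since neither the titles nor the paper name a shared batch. Markers of the exodermis, a root cell layer whose walls become suberized, moved with the groups. They were suberin genes that the paper places at the far end of exodermal development. SlFAR3B, which the paper names there too, was not among them. All 10 fell, and their summed level was 1422 to 2812 CPM in the whole-root libraries and 12.1 to 50.0 CPM in the protoplasted libraries, with SlGPAT5 at 0 counts in protoplasted replicates 1 and 2. The part of cell recovery in the values below was not tested. In these bulk samples, fewer cells of a type and less RNA per cell cannot be told apart.

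The changes past the threshold in the fit without the block were a rise of APX2 to 1.67 times its whole-root level and a fall of CAT3 to 53.6% of its own. Both calls were lost in some of the fits that left out a single library. Without the block, 1 of the 9 genes was higher and 1 lower, against the 17% and 18.7% of all genes. With the replicate block, 4 were higher (APX1, APX2 and both SODs) and 3 lower (all 3 catalases), against 25% and 24.3%. GR and AOX1b passed the threshold in neither fit. The 5 genes with positive and the 4 with negative log2 fold changes had a median absolute change of 0.74, compared with 0.69 over all genes. All 9 estimates lay between the 5th and 95th percentiles of all genes (-3.03 and 1.83).

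**Figure D1:**
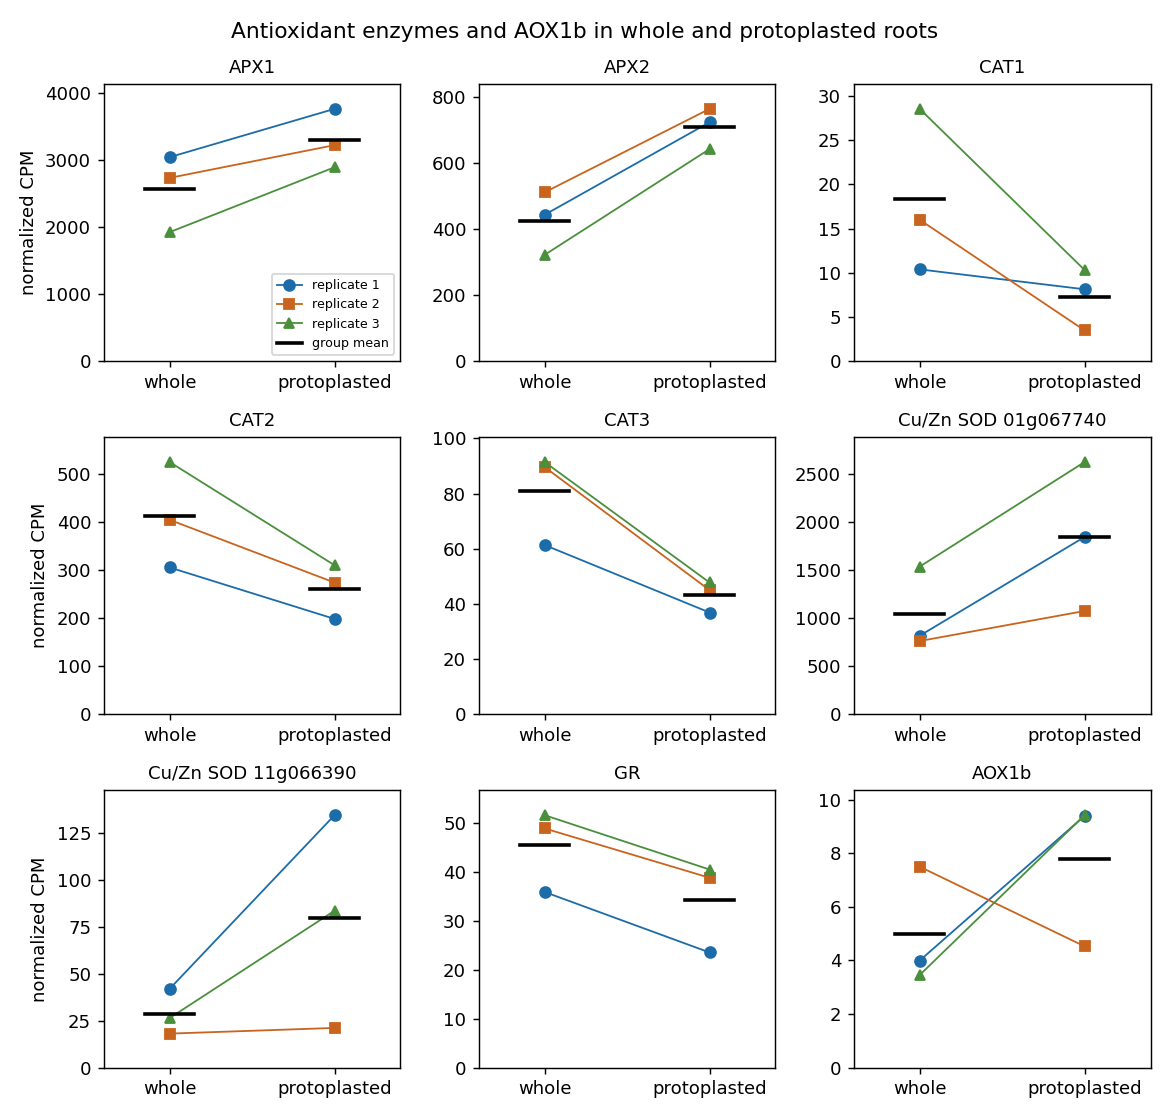
Normalized CPM (y axes, each starting at 0) of the 9 genes in whole and protoplasted roots, with a symbol for each replicate number, lines joining libraries of the same number and black bars for group means (n = 3 libraries each). In all panels but that of AOX1b the 3 lines run the same way.

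**Figure D2:**
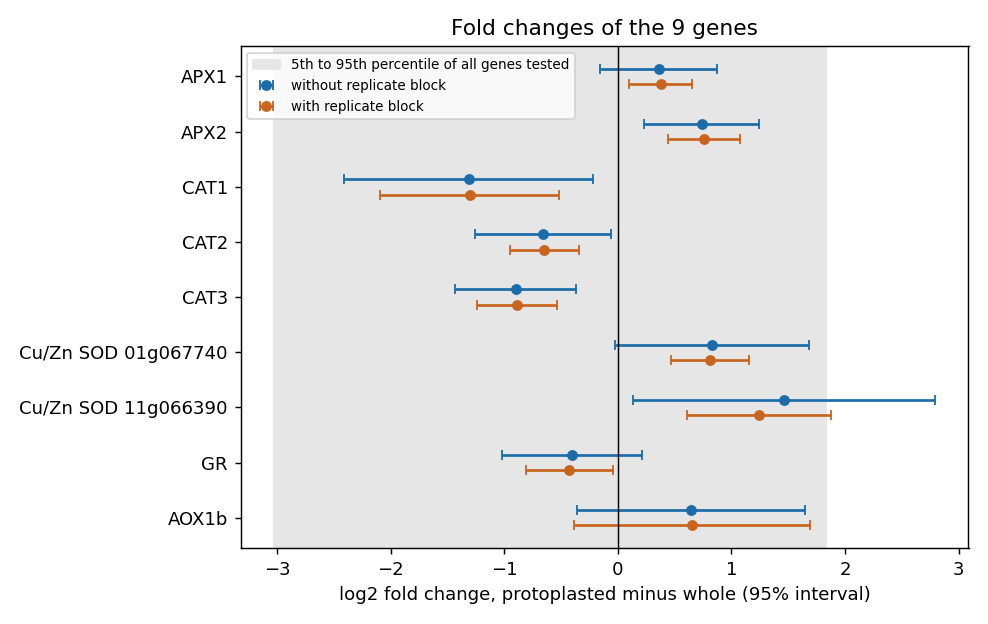
Log2 fold change between protoplasted and whole roots (x axis) of the 9 genes, with 95% intervals from edgeR without and with the replicate block, n = 3 libraries per group. The grey band spans the 5th to 95th percentiles of the 15966 genes, and in both fits the unadjusted intervals lie below 0 for the 3 catalases and above 0 for APX2 and the SOD Solyc11g066390, of which CAT3 and APX2 alone passed the adjusted threshold without the block.

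The Cu/Zn SODs make hydrogen peroxide, which catalases and APXs remove. Solyc01g067740, the more abundant SOD of the pair, had 819, 764 and 1538 CPM in whole-root replicates 1, 2 and 3. Its protoplasted libraries held 1846, 1076 and 2625 CPM in the same order. The groups overlapped, because whole replicate 3 was above protoplasted replicate 2, yet each protoplasted library was above the whole-root library of its own number, by 2.25, 1.41 and 1.71 times. The log2 fold change was 0.83 (standard error 0.38) with an adjusted p of 0.118 from edgeR, and 0.81 (standard error 0.15) with an adjusted p of 0.00214 in the edgeR fit with the replicate block. Without whole replicate 3 the fit without a block also passed the threshold, with a log2 fold change of 1.22 and an adjusted p of 0.0356 (edgeR), whereas without protoplasted replicate 3 the estimate was 0.45 (edgeR adjusted p = 0.378).

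Solyc11g066390 varied most of the 9 genes in protoplasted roots. It had 42.0, 18.2 and 26.4 CPM in whole-root replicates 1, 2 and 3, and 135, 21.2 and 83.7 CPM in the protoplasted ones. Replicate 2 was the lowest library of both groups, and the highest protoplasted library exceeded the lowest by 6.35 times. Protoplasted roots held 3.2, 1.17 and 3.16 times the whole-root level in replicates 1, 2 and 3. Its log2 fold change was 1.47 (standard error 0.59, edgeR adjusted p = 0.0822), and 1.24 (standard error 0.28, edgeR adjusted p = 0.00564) with the replicate block. Single libraries weighed on this gene, whose estimate was 0.85 without protoplasted replicate 1 (edgeR adjusted p = 0.303) and 1.88 without protoplasted replicate 2 (edgeR adjusted p = 0.0205).

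The catalases all had lower means in protoplasted roots. CAT2, the catalase with the most tags, had 306, 405 and 526 CPM in whole-root replicates 1, 2 and 3, and 199, 275 and 311 CPM in the protoplasted ones. Only whole replicate 1 and protoplasted replicate 3 overlapped. Within the replicate numbers, protoplasted roots held 0.650, 0.678 and 0.591 of the whole-root level. For CAT2 the log2 fold change was -0.66 (standard error 0.26, edgeR adjusted p = 0.0838), and -0.65 (standard error 0.14, edgeR adjusted p = 0.00389) with the replicate block. Without the block it was -0.84 without whole replicate 1, the only single library whose removal gave a call (edgeR adjusted p = 0.0378), and -0.45 without whole replicate 3 (edgeR adjusted p = 0.237).

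CAT3 had 61.4, 89.6 and 91.4 CPM in whole-root replicates 1, 2 and 3, and 36.9, 45.0 and 47.8 CPM in the protoplasted ones. All protoplasted libraries were below all whole-root libraries. CAT3 fell, with a log2 fold change of -0.90 (standard error 0.23, edgeR adjusted p = 0.0179), and -0.89 (standard error 0.16, edgeR adjusted p = 0.00164) with the replicate block. In fits without the block, the call was lost without whole replicate 2 (edgeR adjusted p = 0.068), protoplasted replicate 1 (0.0539) or protoplasted replicate 2 (0.059). The log2 fold changes there were -0.82, -0.81 and -0.95.

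CAT1 was the catalase with the fewest tags, at 10.4, 16.0 and 28.5 CPM in whole-root replicates 1, 2 and 3 and 8.14, 3.50 and 10.3 CPM in the protoplasted ones. The groups were separated by a narrow gap, between 10.4 and 10.3 CPM, and protoplasted replicate 2 was the lowest library. The log2 fold change was -1.31 (standard error 0.48, edgeR adjusted p = 0.0636), and -1.31 (standard error 0.35, edgeR adjusted p = 0.0128) with the replicate block. Without the block, the fits that left out whole replicate 1 or protoplasted replicate 3 passed the threshold (edgeR adjusted p = 0.0278 and 0.0463), with log2 fold changes of -1.6 and -1.69, and the estimate was -0.84 without whole replicate 3. With the block, the call was lost when both libraries of replicate 2 were left out (log2 fold change -0.95, edgeR adjusted p = 0.0754).

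The ascorbate peroxidases had higher means in protoplasted roots, and APX2 alone passed the threshold without the block. It had 444, 512.5 and 323 CPM in whole-root replicates 1, 2 and 3 and 725, 765 and 643 CPM in the protoplasted ones. Every protoplasted library was above every whole-root library. APX2 rose, with a log2 fold change of 0.74 (standard error 0.22, edgeR adjusted p = 0.0316). This call was close to the threshold and was lost in 5 of the 6 fits that left out a single library, with edgeR adjusted p-values of 0.0515 without whole replicate 1, 0.0783 without whole replicate 3, 0.0811 without protoplasted replicate 1, 0.129 without protoplasted replicate 2 and 0.057 without protoplasted replicate 3. In these fits its log2 fold change stayed between 0.57 and 0.76. It also missed the threshold with scaling by library size only (log2 fold change 0.57, edgeR adjusted p = 0.0869) and with at least 10 counts required in every library (0.64, edgeR adjusted p = 0.0549). With the replicate block it was 0.76 (standard error 0.14, edgeR adjusted p = 0.00204).

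APX1, with 2564 ± 576 CPM (SD, n = 3) in whole roots, was the most abundant gene described here. By mean CPM over all 6 libraries, whole and protoplasted together, it was the 18th most abundant of the 15966 genes. Its whole-root libraries held 3039, 2731 and 1923 CPM in replicates 1, 2 and 3, and its protoplasted libraries 3758, 3218 and 2889 CPM. The groups overlapped, and each protoplasted library was above the whole-root library of its number, by 1.24, 1.18 and 1.5 times. For APX1 the log2 fold change was 0.36 (standard error 0.23, edgeR adjusted p = 0.246), and 0.38 (standard error 0.12, edgeR adjusted p = 0.0297) with the replicate block. That call rested on replicate 3, since without both libraries of that number the blocked estimate was 0.21 (edgeR adjusted p = 0.415).

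GR, which regenerates the reduced glutathione of the ascorbate cycle, had 36.0, 49.0 and 51.7 CPM in whole-root replicates 1, 2 and 3 and 23.6, 38.9 and 40.6 CPM in the protoplasted ones. The groups overlapped, although the protoplasted library was the lower of each pair. The log2 fold change was -0.41, with a 95% interval from -1.02 to 0.21 (edgeR adjusted p = 0.274). With the replicate block it was -0.43, with an interval from -0.81 to -0.04 before adjustment (edgeR adjusted p = 0.0647).

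AOX1b was the least abundant gene of the 9. It had 4.0, 7.5 and 3.46 CPM in whole-root replicates 1, 2 and 3 and 9.39, 4.53 and 9.42 CPM in the protoplasted ones. Replicate 2 ran against the others, with the whole-root library above the protoplasted library. These levels rest on 20 to 52 counts a library. By exact Poisson intervals (95%, counting error only) the 20 counts of whole replicate 3 could be 12.2 to 30.9 and the 52 of protoplasted replicate 3 could be 38.8 to 68.2. The log2 fold change was 0.64, with a 95% interval from -0.36 to 1.64 (edgeR adjusted p = 0.288). This interval takes in both no change and a rise to more than 2 times the level. With the replicate block the log2 fold change was 0.66 (edgeR adjusted p = 0.264). An alternative chosen after seeing the data kept the block and left out both libraries of a replicate number. It gave 0.36 without replicate 1 (edgeR adjusted p = 0.595) and 0.20 without replicate 3 (edgeR adjusted p = 0.801). Only without replicate 2, the number that ran against the others, did it pass the threshold, at 1.33 (edgeR adjusted p = 0.036).

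The groups of 3 of the 9 genes did not overlap (APX2 above, CAT1 and CAT3 below), against 50.7% of all genes. In 8 of the 9 the sign of the difference was the same in all 3 replicate numbers, against 71.4% of all genes. Summed over the genes described here only, APX1 and APX2 had 3484, 3243 and 2246 CPM in whole-root replicates 1, 2 and 3 and 4483, 3983 and 3532 CPM in the protoplasted ones. The catalases summed to 378, 511 and 646 CPM in whole roots and 244, 323 and 369 CPM in protoplasted roots. The SOD sums were 861, 782 and 1564 CPM in whole roots and 1980, 1097 and 2708 CPM in protoplasted roots. The groups thus did not overlap for the sum of APX1 and APX2 or for that of the catalases, and overlapped for the SOD sums. Both gaps were narrow, at 3484 against 3532 CPM for APX1 and APX2 and 378 against 369 CPM for the catalases. Further APX and SOD loci, taken up below, were not part of these sums. The separation of the APX sum holds for APX1 and APX2 alone and does not extend to all listed APX loci.

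Whether the copies of an enzyme shifted against each other was examined with the log2 ratio of their counts within a library, which does not depend on scaling between libraries. With 3 libraries against 3, the exact permutation test cannot give a p below 0.1. APX1 exceeded APX2 by 2.59 ± 0.18 on the log2 scale in whole roots and by 2.20 ± 0.15 in protoplasted roots (SD, n = 3). This difference of -0.38 (standard error 0.14) was -0.40, -0.34 and -0.41 in replicates 1, 2 and 3, and the groups did not overlap (two-sided exact permutation p = 0.1, adjusted p = 0.5 over 5 ratios). With libraries paired by replicate number, a comparison added after seeing the data, the standard error of the difference was 0.021. The exact permutation p over sign flips was then 0.25, the smallest that 3 pairs can give. Neither test could pass the threshold with this number of libraries, so the APX ratio is given as a description. APX2 took a larger part of the summed APX1 and APX2 tags in each protoplasted library than in the whole-root library of its number.

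The other ratios differed by less or varied more. The difference was 0.24 (standard error 0.13) for CAT2 to CAT3 and -0.67 (standard error 0.55) for CAT1 to CAT2. It was -0.44 (standard error 0.56) for CAT1 to CAT3 and -0.37 (standard error 0.72) for the SOD on chromosome 1 to the SOD on chromosome 11. In all 4 the groups overlapped, and the two-sided exact permutation p was between 0.2 and 0.6. The CAT2 to CAT3 difference was 0.11, 0.43 and 0.18 in replicates 1, 2 and 3, so its sign was also the same in each. Its exact permutation p over sign flips was 0.25, as for the APX ratio. For CAT1, protoplasted replicate 2 decided the size, and without it the CAT1 to CAT3 difference was 0.052 and the CAT1 to CAT2 difference -0.17.

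**Figure D3:**
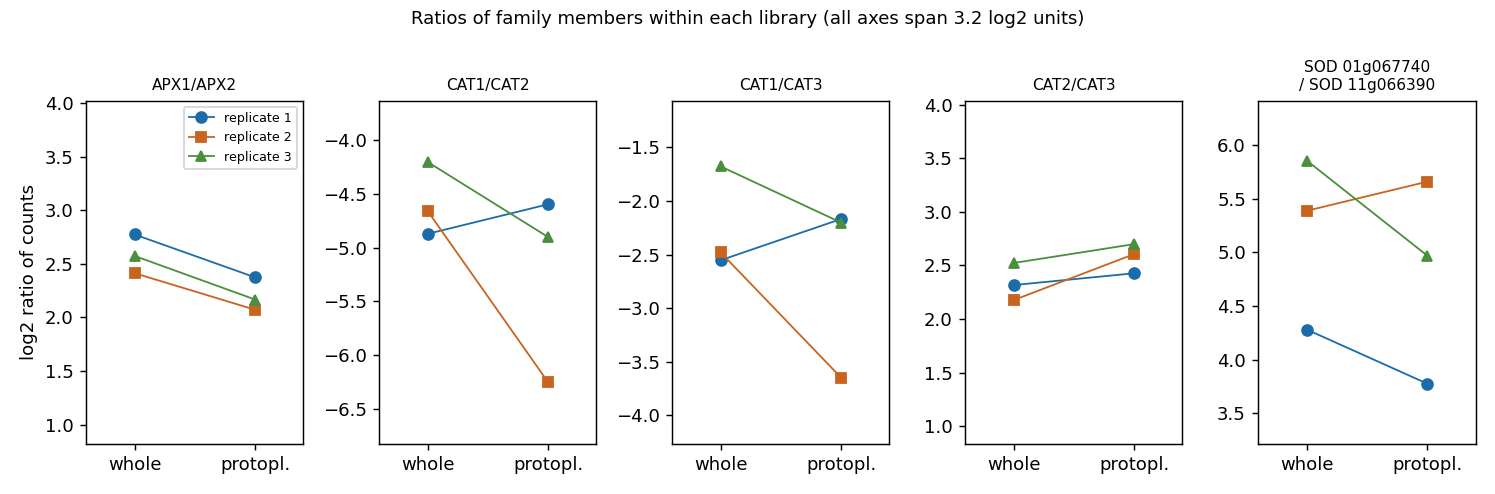
Log2 ratio of the counts of family members in the same library (y axes, each spanning the same range), for whole and protoplasted roots, with lines joining libraries of the same replicate number (n = 3 per group). In each protoplasted library the APX1 to APX2 ratio is lower, and the CAT2 to CAT3 ratio higher, than in its whole-root counterpart. The lines of the CAT1 and SOD ratios run in both directions.

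Libraries with the same replicate number resembled each other for most of these genes. In 7 of the 9, the order of the 3 libraries was the same in both groups, compared with 32.7% of all genes. For APX1, replicate 1 was the highest library and replicate 3 the lowest in either group. For CAT2, CAT3 and GR the opposite held, with replicate 3 the highest and replicate 1 the lowest in either group. The exceptions were CAT1 and AOX1b, the genes with the fewest tags.

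Of the genes that passed the threshold without a block, the gene outside the 10 whose levels followed each most closely was sought by Pearson correlation of log2(CPM + 1) over the 6 libraries, among genes within a 2-fold range of its mean. For APX2 it was Solyc05g052510.4.1 (r = 0.993 among 563 genes), with 212, 247 and 164 CPM in whole-root replicates 1, 2 and 3 and 392, 388 and 323 CPM in the protoplasted ones. For CAT3 it was Solyc10g086570.3.1 (r = 0.998 among 3855 genes), with 19.0, 115 and 125 CPM and 1.67, 5.14 and 8.33 CPM. The latter fell by 4.07 on the log2 scale, far more than CAT3, since a correlation takes no account of size. The correlations are descriptions over 6 libraries that share the difference between the groups, and the files pair neither identifier with a name.

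Other loci of the same pathway were taken from a list of 19 that covered further APX and SOD loci, another GR locus, and the monodehydroascorbate and dehydroascorbate reductases that return oxidized ascorbate to ascorbate. The assignment of these loci to enzymes comes from general knowledge of tomato locus numbers and is not given by the files, so they are named by locus only. Of the 17 that passed the filter, 1 rose and 6 fell (edgeR, no block), and with the replicate block 2 rose and 7 fell. Over all genes the shares were 17% higher and 18.7% lower without the block, and 25% and 24.3% with it. Their median log2 fold change was -0.42, against 0.02 for all genes, and 13 of the 17 were negative. Of the 6 that fell, 1 had at most 2.03 estimated counts in the protoplasted libraries and is given no fold. Set to the floor of 3 counts, that locus stayed below the median, so the median could not change. The other 5 had log2 fold changes from -3.93 to -1.01.

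By family, 2 of 5 further APX loci, 2 of 6 further SOD loci, 1 of 3 monodehydroascorbate reductase loci and 1 of 2 dehydroascorbate reductase loci fell, and 1 further APX locus rose. With 18.7% of all genes lower and 17% higher, such counts in families of 2 to 6 loci are not read as a result about a family. Solyc05g054760 fell from 146, 94.1 and 91.4 CPM in whole-root replicates 1, 2 and 3 to 6.68, 8.02 and 9.60 CPM in the protoplasted ones (log2 fold change -3.76, standard error 0.29, edgeR adjusted p = 2.4e-04). Solyc09g007270 fell from 86.8, 78.1 and 112.5 CPM to 2.30, 3.50 and 12.1 CPM (log2 fold change -3.93, standard error 0.55, edgeR adjusted p = 0.00134). Both were separated fully between the groups and changed more than any of the 9 genes. Solyc06g060260, the locus that rose, went from 63.0, 39.0 and 40.4 CPM to 114, 87.0 and 63.9 CPM (log2 fold change 0.89, standard error 0.29, edgeR adjusted p = 0.0412). Its call was lost without whole replicate 2 (edgeR adjusted p = 0.143), whole replicate 3 (0.107), protoplasted replicate 1 (0.148) or protoplasted replicate 2 (0.119).

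**Figure D4:**
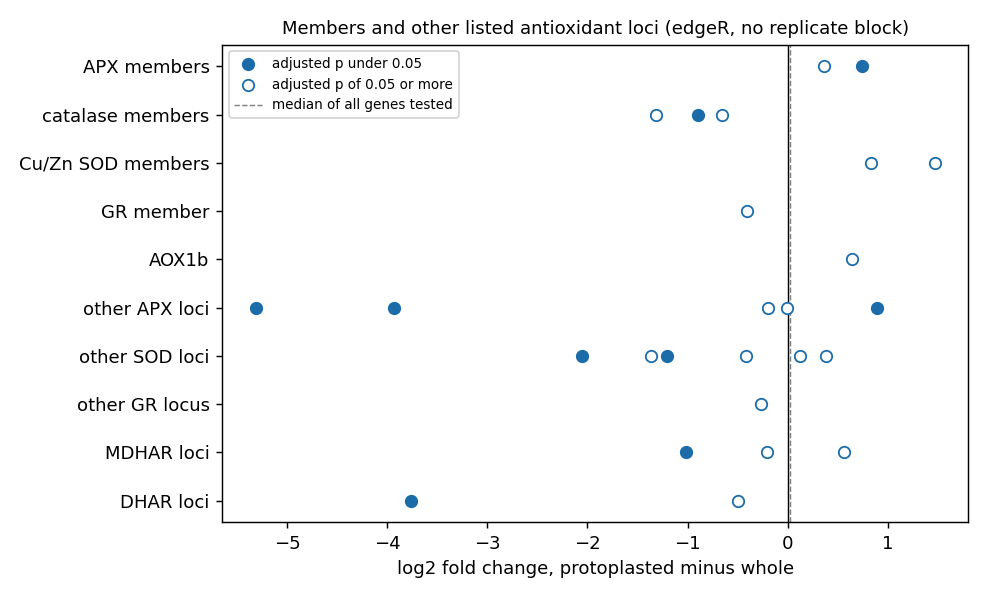
Log2 fold change between protoplasted and whole roots (x axis, edgeR without the block, n = 3 per group) of the 9 genes and of 17 further loci, 1 point per gene in rows by enzyme family, filled where the adjusted p was under 0.05. The further loci reach lower values than the 9 genes, and the lowest point is the locus at the floor, whose fitted value depends on the prior count.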

How the data were processed

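Bulk libraries of whole and protoplasted roots (3 each) were grouped by their labels, and columns were matched to libraries by the column names in the descriptions. The authors trimmed reads with TrimGalore! 0.6.6 and quantified read 1 with Kallisto 0.46.2 against cDNA sequences of ITAG4.1, and deposited estimated counts per gene model without normalization. No molecular identifiers and no strand option are described. Kallisto divides reads between similar transcripts, but the counts of all 9 genes were whole numbers in every library.

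Counts were rounded, filtered by filterByExpr (minimum count 10, minimum total 15), scaled by TMM factors and, over all genes, compared in edgeR 4.0.16 (R 4.3.3) by quasi-likelihood. Standard errors were the absolute log2 fold change divided by the square root of F. A replicate block, single libraries left out, other filters and scalings, DESeq2 1.42.0 and limma-voom (limma 3.58.1) served as alternatives. The code was tested on simulated data.

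Replicate numbers come from the sample titles, and neither the titles nor the paper name a shared batch. Deviations of same-numbered libraries from their group means correlated at 0.457, 0.121 and 0.566 over 15966 genes, each above 0.1, so the numbers were treated as pairing the libraries. Libraries with different numbers were not compared in this way, and genes do not vary independently. The correlations therefore cannot decide whether the numbers mark true pairs, and the fit with the block rests on that assumption. Every pair of libraries of a group differed by more than counting noise, with chi-square at least 13.2 times its degrees of freedom. Nothing in the labels says that the libraries came from separate plantings, so p-values measure the spread between these samples, which may be technical.

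The 9 genes and the lists were chosen with earlier results of these data known, and the count adjusted over the list alone is therefore not given. All members were named whatever their values. Outside them, the most similar gene was named for up to 2 risen and 2 fallen members past the threshold. RefSeq identifiers matched 0 of the 10 loci, and 8 symbols were looked up by name.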

Additional observations from a re-analysis of the deposited data

How the results depend on the processing

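The log2 fold changes of the 9 genes kept their sign under all 17 alternatives, including the added ones, while the number past the threshold did not hold. Against 1 higher and 1 lower of the 9 genes, there were 2 and 2 with DESeq2, 2 and 2 without a filter beyond any count, 0 (1 at an unadjusted p under 0.05) and 3 with edgeR on library size only, and 0 (2 unadjusted) and 1 with at least 10 counts in every library. With the replicate block in edgeR there were 4 and 3. With single libraries left out (edgeR), the counts were 0 to 1 higher and 0 to 3 lower, where 1 to 3 were higher and 1 to 3 lower at an unadjusted p under 0.05. In an alternative chosen after seeing the data, the block with both libraries of a replicate number left out, they were 3 to 5 higher and 2 to 3 lower. limma-voom gave 1 and 1. For the other loci, the 1 that rose became 0 on library size only and with at least 10 counts in every library (each edgeR, 1 unadjusted), 2 with the replicate block, 0 to 1 with single libraries left out (0 to 2 unadjusted) and 2 with the block and without replicate 1. Over all genes, from 1522 to 2747 were higher when a library was left out, against 2711, with 1522 without protoplasted replicate 2 and 1726 without whole replicate 2. Scaling by library size only moved the share of higher genes among the calls from 47.6% to 35.4% and the median of all genes to -0.14. The cause of these changes was not tested.

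Among the ratios, the CAT1 to CAT3 difference ranged from -0.69 to 0.052 (without protoplasted replicate 2) and the SOD difference from -0.82 to 0.14 (without protoplasted replicate 1) with single libraries left out, so that both changed sign. The glutathione S-transferase Solyc06g009020, at 0.01, was at -0.023 with DESeq2 and with RLE factors, -0.0035 with upper-quartile factors, -0.17 on library size only, -0.091 with at least 10 counts in every library, from -0.18 to 0.29 with single libraries left out, and -0.20 with the block and without replicate 3. AOX1b rests on 20 to 52 counts a library and CAT1 on 17 to 165.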

Other observations

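The paper's co-expression module enriched in suberin-related genes also holds 4 genes described there as glutathione S-transferases or peroxidases. Such enzymes use glutathione or hydrogen peroxide outside the ascorbate cycle. Of these 4, 3 fell in protoplasted roots (edgeR, n = 3 per group), where 18.7% of all genes were lower. The other genes of the module were not counted here, so this is not read as a result about these enzymes. The peroxidase Solyc06g050440 went from 126, 153 and 346 CPM in whole-root replicates 1, 2 and 3 to 0.417, 2.47 and 6.16 CPM in the protoplasted ones (log2 fold change -6.07, standard error 0.75, edgeR adjusted p = 8.7e-04). Its protoplasted libraries held 2, 12 and 34 counts, with replicate 1 under the floor of 3 counts, so the size of this fall is imprecise. The glutathione S-transferase Solyc07g056500 went from 82.5, 40.3 and 42.2 CPM to 3.97, 4.53 and 10.9 CPM (log2 fold change -3.08, standard error 0.46, edgeR adjusted p = 0.00177). Solyc10g084400, another glutathione S-transferase, went from 812, 243 and 348 CPM to 33.0, 27.4 and 131 CPM (log2 fold change -2.87, standard error 0.68, edgeR adjusted p = 0.0124), and its call was lost without protoplasted replicate 2 (edgeR adjusted p = 0.0567). The most abundant, the glutathione S-transferase Solyc06g009020, had 3391, 2263 and 1829 CPM in whole roots and 2596, 2441 and 2484 CPM in protoplasted roots, and its log2 fold change of 0.01 was within the spread between replicates (edgeR adjusted p = 0.986) and changed sign with the scaling. The summed exodermis markers fell over the same libraries, from 1422 to 2812 CPM in whole roots to 12.1 to 50.0 CPM in protoplasted roots, and their part in these values was not tested.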
